A study of Mus musculus with 7 samples.

Results

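The genes of the lysosome were described in muscularis macrophages, the resident macrophages of the gut's muscle layer, of the mouse small intestine. The members were 29 named genes (cathepsins, other acid hydrolases, their cofactors, lysosomal membrane proteins and a regulator), all of which were found in the deposited table, and the 20 genes whose name marks them as subunits of the vacuolar proton pump (names beginning with Atp6v or Atp6ap). That gave 49 of 17209 genes, in 4 groups: 11 cathepsins, 10 other hydrolases, 8 membrane, cofactor and regulator genes, and 20 proton pump genes. The cells came from C57BL6/J mice and were sorted as CX3CR1-GFP+ cells after the muscle layer had been peeled off. The control group had sham surgery (4 libraries) and the other had pMCAO surgery, which the series calls stroke (3 libraries), and both were taken at 24 h. The labels do not tie a library to a single animal, and that of pMCAO 3 mentions a pool, so p-values measure the spread between these libraries.

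Lysosomes are the acid compartment in which macrophages break down what they take up and what they recycle from within. A proton pump, the V-ATPase, drives acid into the lumen: its V1 sector in the cytosol splits ATP and its V0 sector in the membrane carries the protons. Cathepsins cut proteins, glycosidases and lipases take apart sugar chains and lipids, and saposins present lipids to these enzymes. NPC2 hands freed cholesterol to the membrane. The transcription factor TFEB switches on many of these genes together through short promoter elements built around an E-box with the letters CACGTG.

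The promoters are shown first because that element is what many of these genes are known to share. RefSeq windows (GRCm38.p6, 250 bases before to 50 bases after each start) were matched for 39 of the 49 members. CACGTG, which reads the same on both strands, lay in a window of 15 of the 39 (38.5%), against 1178 of 10548 genes of the table (11.2%). The longer form TCACGTG, on either strand and always holding CACGTG, lay in 13 members (33.3%, against 6.71%), and TCACGTGA in 7 (17.9%, against 2.05%). With a G directly before and a C directly after that last form, it lay in 0 of the 39 members and in 81 of all genes (0.768%). The 15 members were Ctsa, Ctsd, Ctsf, Ctsl and Lgmn among cathepsins, Gla, Glb1, Gaa and Naglu among other hydrolases, Lamp1 and Mcoln1 among membrane genes, and Atp6v0b, Atp6v0d1, Atp6v0e and Atp6v1a of the pump. A match is a string of letters, not evidence of binding.

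Printed below are the window with the most matches (Lamp1), that of a membrane channel (Mcoln1), those of a protease (Ctsd) and of a glycosidase with a higher mean after pMCAO (Gla), and that of Gusb, whose window has no match. Each runs 5′ to 3′ on the gene's own strand, over the 250 bases before the start and the first 20 of the transcript, and capitals mark CACGTG with a T directly before it or an A directly after it.
Lamp1 promoter, chr8:13158911-13159180, plus strand: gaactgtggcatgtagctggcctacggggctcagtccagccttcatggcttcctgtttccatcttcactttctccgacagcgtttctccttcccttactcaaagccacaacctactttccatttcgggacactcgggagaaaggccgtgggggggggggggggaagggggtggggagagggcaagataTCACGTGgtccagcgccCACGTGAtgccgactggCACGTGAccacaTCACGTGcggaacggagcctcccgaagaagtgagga
Mcoln1 promoter, chr8:3500269-3500538, plus strand: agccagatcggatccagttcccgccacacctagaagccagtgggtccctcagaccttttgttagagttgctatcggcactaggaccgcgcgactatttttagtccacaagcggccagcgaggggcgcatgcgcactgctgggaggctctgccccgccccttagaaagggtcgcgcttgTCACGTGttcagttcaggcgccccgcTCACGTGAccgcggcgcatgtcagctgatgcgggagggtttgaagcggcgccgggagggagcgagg
Ctsd promoter, chr7:142387808-142388077, minus strand: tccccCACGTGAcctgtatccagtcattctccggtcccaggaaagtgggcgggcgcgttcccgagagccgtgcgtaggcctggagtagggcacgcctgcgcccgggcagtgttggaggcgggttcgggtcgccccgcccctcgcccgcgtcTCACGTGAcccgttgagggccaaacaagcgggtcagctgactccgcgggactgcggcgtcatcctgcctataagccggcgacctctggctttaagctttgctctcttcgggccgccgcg
Gla promoter, chrX:134600986-134601255, minus strand: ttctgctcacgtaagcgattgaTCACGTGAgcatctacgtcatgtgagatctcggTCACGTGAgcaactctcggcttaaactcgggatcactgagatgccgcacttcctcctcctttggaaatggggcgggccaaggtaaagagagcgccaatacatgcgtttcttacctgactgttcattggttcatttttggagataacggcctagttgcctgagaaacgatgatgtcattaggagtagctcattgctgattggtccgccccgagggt
Gusb promoter, chr5:130003030-130003299, minus strand: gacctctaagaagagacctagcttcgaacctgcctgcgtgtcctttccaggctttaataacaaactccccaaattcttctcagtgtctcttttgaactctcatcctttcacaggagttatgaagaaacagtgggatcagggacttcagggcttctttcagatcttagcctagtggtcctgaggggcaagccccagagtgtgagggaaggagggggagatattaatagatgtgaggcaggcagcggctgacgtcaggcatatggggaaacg
With the start base as 0, the CACGTG of Lamp1 begins at -61, -45, -28 and -15, and that of Mcoln1 at -71 and -45. In Ctsd it begins at -245 and -98, and in Gla at -227 and -194. The median log2 change from sham to pMCAO, described further on, was -0.30 in the 15 with a match and -0.31 in the 24 with a window but no match, and it was 0.03 in the 10 with no window.

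Library totals ran from 12685941 counts in pMCAO 1 to 34432716 in Sham 4, so that 3 counts were worth 0.256 and 0.0825 CPM in these libraries. CPM are read counts relative to the library's total after TMM scaling, the error of a mean is the SD (n = 4 for sham, n = 3 for pMCAO), and that of a log2 change is the SE. The cells had the genes of macrophages: all 13 pan-macrophage markers were measured, among them Csf1r, Adgre1 and Cx3cr1, and their summed level was 19387 to 25935 CPM in sham and 13498 to 19435 CPM in pMCAO libraries. Other properties moved with the groups. The summed level of 8 fibroblast genes was 55.3 to 163 CPM in sham and 106 to 533 CPM in pMCAO libraries, and that of 7 blood endothelial genes was 103 to 278 and 327 to 489 CPM. For 4 of 5 markers of large peritoneal macrophages (Gata6 was not among the listed genes) it was 13.5 to 32.3 and 35.9 to 83.7 CPM. Of these 4, edgeR called 0. DESeq2 called Prg4 and F5 higher, where 1.83% of the genes it tested were called higher. Icam2 had a lower mean (log2 change -0.32 ± 0.52), and Selp had means of only 0.303 and 1.27 CPM. All 8 fibroblast and all 7 endothelial genes had higher means after pMCAO. Among them edgeR called 1, the endothelial gene Sox17 (log2 change 2.78 ± 0.48, adjusted p = 0.041), where 0.0697% of all genes were called higher. DESeq2 called Sox17, Cdh5, Flt1 and Tek of the endothelial genes higher, and Col1a2 and Pdgfra of the fibroblast genes. Mitochondrial ribosomal RNA took 2.42% to 5.82% of counts in sham and 8.26% to 12.6% in pMCAO libraries. Libraries also differed in how a gene's level depended on the GC content of its transcript, from a slope of -0.479 log2 units per 10 points of GC in pMCAO 3 to 0.347 in Sham 4. The part of these properties in the results on single genes was not tested. A fit with offsets for GC content is described further on.

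Muscularis macrophages held lysosomal transcripts at very different levels, led by cysteine proteases. Compared per kilobase of exon, Ctss, cathepsin S, which trims the invariant chain in antigen presentation, had the highest level of the 49, at 1340 ± 324 CPM per kilobase in sham libraries (SD, n = 4). Ctsc, the activator of granule serine proteases, followed at 516 ± 72.0, and Lamp1, the most abundant kind of lysosomal membrane glycoprotein, at 430 ± 40.5. Ctsb, a broad cysteine protease, was at 404 ± 54.2, which was within the spread of Lamp1. The next were Psap, the precursor of the saposins, at 294 ± 10.6 CPM per kilobase and Lgmn, the asparaginyl endopeptidase that matures other cathepsins, at 246 ± 36.5.

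At the other end of this scale stood the isoforms known from specialised cells. Ctsk, the collagenase of osteoclasts, was at 2.25 ± 0.885 CPM per kilobase, Atp6v1c2, a V1 isoform of kidney and lung, at 0.776 ± 0.430, and Atp6v0e2 at 0.344 ± 0.362. The plot of levels by library shows this order. The order depends in part on the gene model. Over the longest coding transcript instead of all exons, the mean level over all 7 libraries was 1212 CPM per kilobase for Ctss and 909 for Ctsc. By that measure Ctsh was next at 515, above Lamp1 at 481 and Ctsb at 456, where its mean per kilobase of exon was 185. Lamp2, at 337, was then above Lgmn at 270 and Psap at 267. In total the 49 genes took 1.68%, 2.10%, 1.95% and 2.04% of all counts in Sham 1 to 4 and 1.51%, 1.70% and 1.38% in pMCAO 1 to 3.

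**Figure D1:**
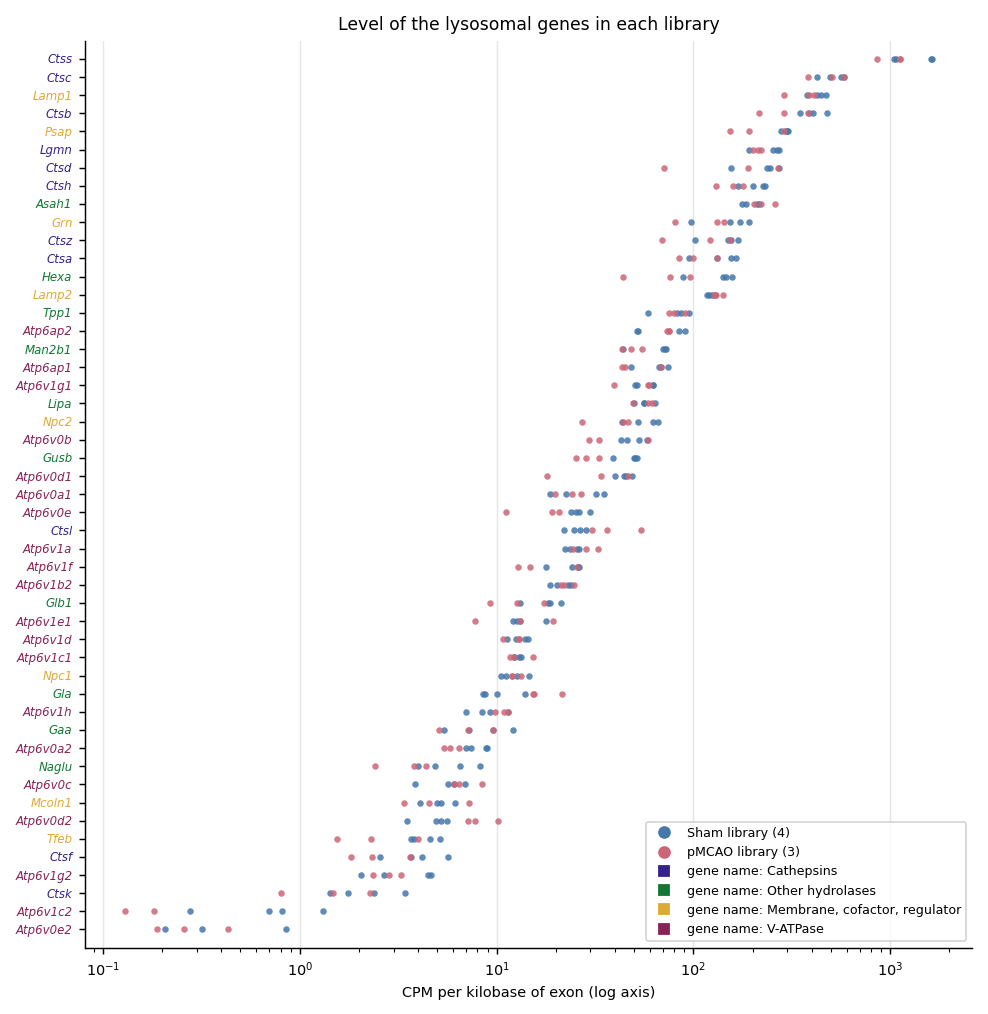
Level of each of the 49 lysosomal genes in each library, in CPM per kilobase of exon on a log axis (points: 4 sham and 3 pMCAO libraries, values of 0 not drawn, gene names coloured by group). Ctss has the highest and Atp6v0e2 the lowest sham mean, and for most genes the points of both surgery groups overlap.

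After pMCAO surgery most members had lower means, by small amounts, and none passed the test. The log2 change (pMCAO minus sham, from the edgeR fit) was below 0 for 36 of the 49 genes (73.5%), against 51.4% of all genes, and its median was -0.29 against -0.02 over all genes. By edgeR's quasi-likelihood test with Benjamini-Hochberg adjustment over all genes, 0 of 49 members were below the threshold of 0.05, where 17 genes of the table were (0.0988%). The smallest adjusted p of a member was 0.117, for Gusb. Limma-voom also called 0 members (0.203% of all genes were called). DESeq2 called 2, Gusb and Hexa, both lower (of the genes it tested 3.07% were called and 1.24% called lower).

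Before adjustment, 12 members (24.5%) had an edgeR p under 0.05, where 13.4% of all genes did. Of these, 3 had higher means after pMCAO (6.12% of members, against 6.97% of all genes): Ctsl, Gla and Atp6v0d2. The other 9 had lower means (18.4% of members, against 6.47% of all genes): Gusb, Hexa, Ctsh, Psap, Npc2, Tfeb, Atp6v0a2, Atp6v0e and Atp6v1c2. The number with lower means was 5 without Sham 2 (10.2% of members, against 4.37% of all genes), 4 without Sham 4 (8.16%, against 4.11%) and 16 without pMCAO 2 (32.7%, against 9.53%), so the shares of members and of all genes moved the same way. All libraries of one surgery group lay above all of the other for the same 3 higher genes (5.99% of all genes were higher in this way) and for 4 lower ones, Gusb, Atp6v0a2, Atp6v0e and Atp6v1c2 (6.58% of all genes were lower in this way).

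**Figure D2:**
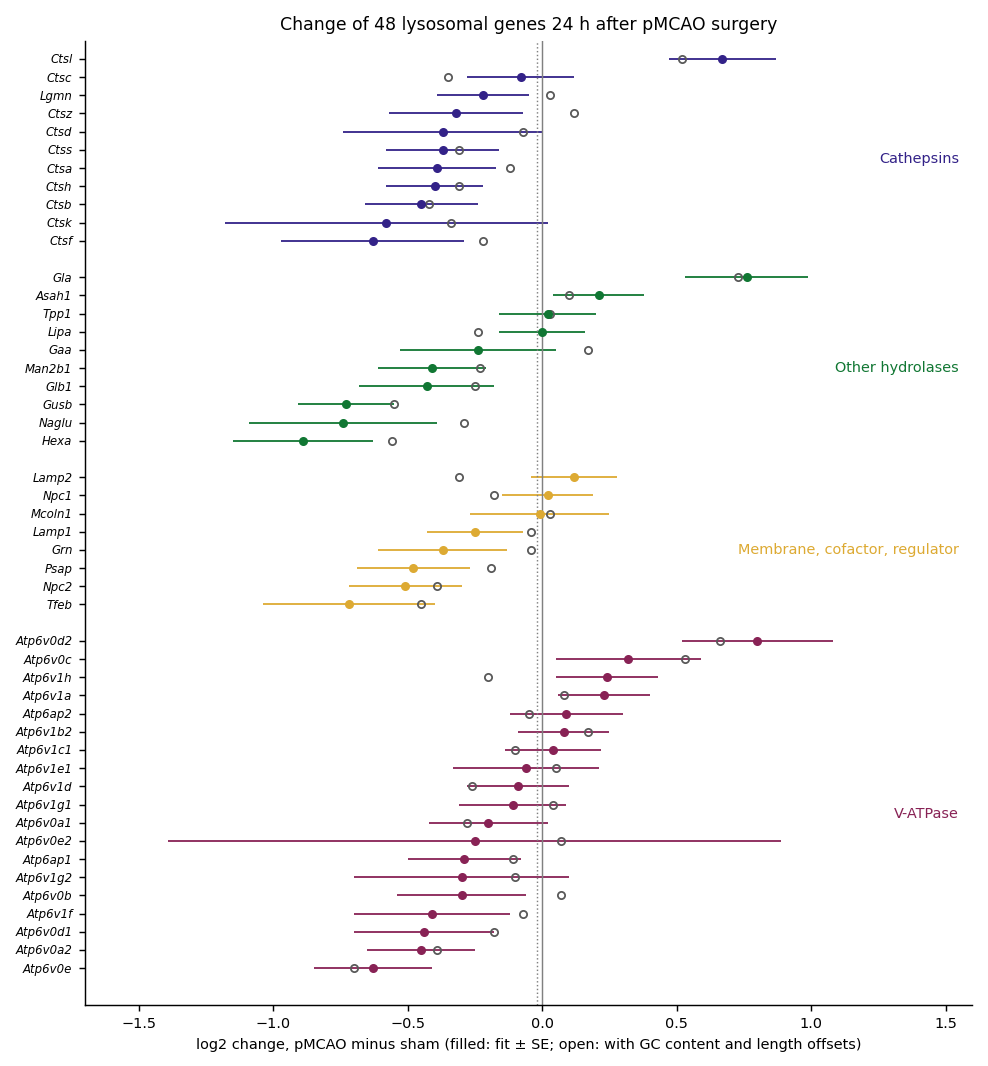
The log2 change from sham to pMCAO of 48 members (Atp6v1c2, with few counts, is left out), as the edgeR estimate with its SE (filled) and as the estimate with offsets for GC content and transcript length (open), the dotted line being the median of all genes. Of the filled points, Gla, Ctsl and Atp6v0d2 lie farthest to the right, and Hexa, Naglu, Gusb and Tfeb farthest to the left, and of the open points Atp6v0e lies farthest to the left.

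Among the proteases, 10 of 11 cathepsins had lower means after pMCAO and only Ctsl had a higher one, with a median log2 change of -0.37 for the group. Ctsl, cathepsin L, an endopeptidase of broad specificity (chr13:64359337-64370890, minus strand, GRCm38), was at 143, 185, 173 and 161 CPM in Sham 1 to 4 and at 237, 353 and 199 CPM in pMCAO 1 to 3. Every pMCAO library lay above every sham library, with pMCAO 2 well above the others. The log2 change was 0.67 ± 0.20 (SE; edgeR adjusted p = 0.190). The gene shares exonic sequence with an antisense gene and a processed pseudogene, and counts may include theirs, since no source used here gives the strand setting.

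The abundant cathepsins had lower means with overlap. Ctss (chr3:95526786-95556403) was at 2215, 2186, 1420 and 1459 CPM in sham and 1529, 1531 and 1158 CPM in pMCAO libraries. Sham 1 and Sham 2 stood above the other 5 libraries, and Sham 3 and Sham 4 lay within the pMCAO range (log2 change -0.37 ± 0.21 SE, adjusted p = 0.460). Ctsb was at 2097, 2883, 2348 and 2440 CPM in sham and at 1754, 2325 and 1298 CPM in pMCAO libraries. Here pMCAO 1 and 3 were below all sham libraries while pMCAO 2 lay among them (log2 change -0.45 ± 0.21, adjusted p = 0.377). Ctsh, an aminopeptidase, was at 761, 1043, 899 and 1014 CPM and then 717, 805 and 589 CPM. Its groups overlapped through Sham 1 and pMCAO 2 only (log2 change -0.40 ± 0.18, adjusted p = 0.356).

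Ctsc, the most abundant cathepsin in CPM, was at 2466, 2859, 3266 and 3386 in sham and 2944, 2208 and 3362 in pMCAO libraries. The groups overlapped over most of their range (log2 change -0.08 ± 0.20). Ctsf was low, at 12.9, 18.6, 21.1 and 28.6 CPM in sham and 9.14, 11.8 and 18.4 CPM in pMCAO libraries (log2 change -0.63 ± 0.34, adjusted p = 0.438). Lgmn was at 447, 620, 587 and 629 CPM in sham and at 492, 515 and 467 CPM in pMCAO libraries, all of which lay within the sham range (log2 change -0.22 ± 0.17). Of the others, Ctsa, Ctsd, Ctsk and Ctsz had log2 changes from -0.58 to -0.32, none with a p under 0.05. Ctsd, the aspartic protease, had by far its lowest value in 1 library: 366, 640, 555 and 577 CPM in sham, 445 and 632 CPM in pMCAO 1 and 2, and 167 CPM in pMCAO 3. Of its 2351 exon bases, 808 are shared with Gm49369, a protein-coding gene on the same strand. Reads there cannot be assigned to 1 gene with certainty, so the level of Ctsd is uncertain.

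Among the other hydrolases, 7 of 10 had log2 changes below 0 and the median was -0.33, and Gusb and Hexa, the members with the smallest p-values of all 49, were here. Gusb, beta-glucuronidase (chr5:129989011-130003049, minus strand), was at 177, 235, 231 and 228 CPM in Sham 1 to 4 and at 129, 151 and 115 CPM in pMCAO 1 to 3. All pMCAO libraries were below all sham libraries. Means were 218 ± 27.2 (SD, n = 4) and 131 ± 18.2 (SD, n = 3), a log2 change of -0.73 ± 0.18 SE (edgeR adjusted p = 0.117). By DESeq2 the adjusted p was 0.0139, and over all alternatives it ranged from 0.0139 to 0.336.

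Hexa, the alpha subunit of beta-hexosaminidase, which degrades GM2 ganglioside (chr9:59539540-59565109), was at 176, 315, 283 and 293 CPM in sham and 151, 192 and 88.1 CPM in pMCAO libraries. Sham 1 fell inside the pMCAO range, and the other 3 sham libraries were above it. The log2 change was -0.89 ± 0.26 (edgeR adjusted p = 0.177). By DESeq2 the adjusted p was 0.0387 (0.0387 to 0.405 over all alternatives). Part of its exons overlap Tmem202 on the other strand.

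Gla, alpha-galactosidase A, which removes galactose from globotriaosylceramide (chrX:134588149-134601125, minus strand), ran the other way. It was at 32.9, 27.8, 45.4 and 28.5 CPM in sham and at 70.5, 49.9 and 50.5 CPM in pMCAO libraries. The lowest pMCAO value was above the highest sham value, by a narrow margin. Means were 33.7 ± 8.18 (SD, n = 4) and 57.0 ± 11.7 CPM (SD, n = 3), a log2 change of 0.76 ± 0.23 (edgeR adjusted p = 0.192).

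The remaining hydrolases overlapped between the groups. Naglu, which removes N-acetylglucosamine from heparan sulphate, was at 10.6, 12.9, 17.4 and 21.8 CPM in sham and 11.7, 10.1 and 6.39 CPM in pMCAO libraries (log2 change -0.74 ± 0.35, adjusted p = 0.378). Asah1, acid ceramidase, was at 728, 712, 630 and 600 CPM and then 878, 690 and 750 CPM (log2 change 0.21 ± 0.17). Man2b1, the lysosomal alpha-mannosidase, had means of 520 ± 111 and 391 ± 46.3 CPM (log2 change -0.41 ± 0.20, adjusted p = 0.382). None of these 3 had an unadjusted edgeR p under 0.05, but Naglu (0.0534) and Man2b1 (0.056) were close to it. By DESeq2 the unadjusted p of Naglu was 0.0428. Lipa, the acid lipase that frees cholesterol and fatty acids, was at 383 ± 39.2 and 383 ± 42.5 CPM, and Tpp1, a tripeptidyl peptidase, at 417 ± 80.4 and 422 ± 40.5 CPM. Glb1 and Gaa, beta-galactosidase and the acid glucosidase of glycogen, had log2 changes of -0.43 ± 0.25 and -0.24 ± 0.29.

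**Figure D3:**
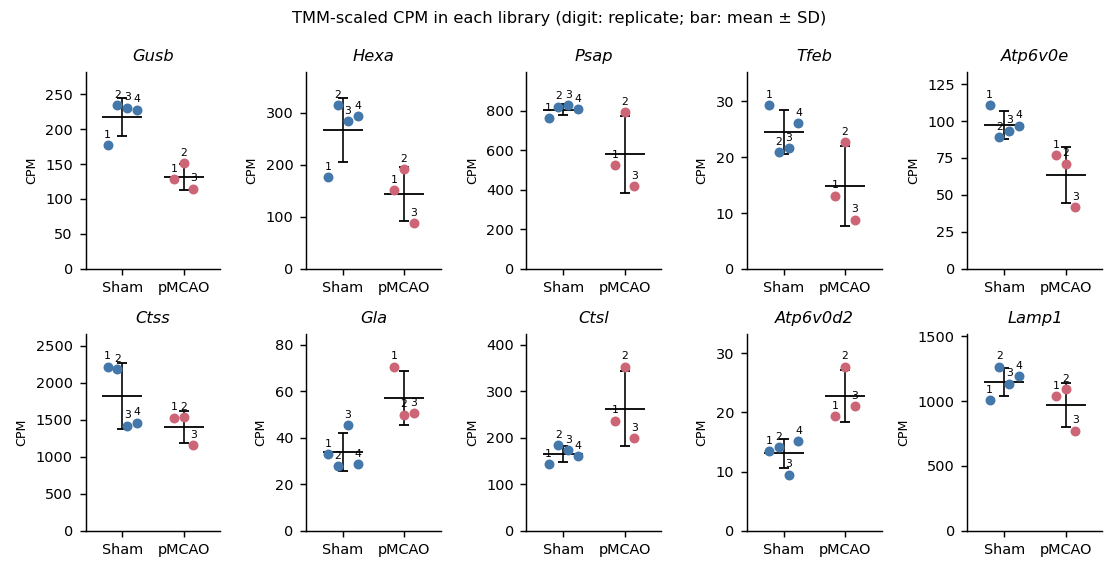
CPM in each library for 10 members (points with the replicate number; bars give mean ± SD; each axis starts at 0). The surgery groups do not overlap for Gusb, Atp6v0e, Gla, Ctsl and Atp6v0d2, and they overlap for Hexa, Psap, Tfeb, Ctss and Lamp1.

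Among the membrane, cofactor and regulator genes, Psap and Npc2, which encode lipid-binding proteins, had lower means. Psap, whose product is cut into saposins, the activators of sphingolipid hydrolases, was at 764, 821, 830 and 808 CPM in sham and at 523, 793 and 419 CPM in pMCAO libraries. The sham libraries were close together, while pMCAO 2 lay among them and pMCAO 1 and 3 far below (log2 change -0.48 ± 0.21, adjusted p = 0.331). Npc2, which hands cholesterol to the membrane, was at 236, 358, 285 and 337 CPM and then 239, 253 and 148 CPM (log2 change -0.51 ± 0.21, adjusted p = 0.320). Its partner Npc1, the membrane cholesterol exporter, was at 139 ± 20.2 CPM in sham (SD, n = 4) and 141 ± 8.81 CPM in pMCAO libraries (SD, n = 3), with a log2 change of 0.02 ± 0.17.

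The large membrane glycoproteins had estimates on opposite sides of 0, neither with an unadjusted edgeR p under 0.05. Lamp1 was at 1009, 1265, 1134 and 1191 CPM in sham and 1040, 1092 and 772 CPM in pMCAO libraries, with only pMCAO 3 outside the sham range (log2 change -0.25 ± 0.18). Lamp2, which also serves chaperone-mediated autophagy, was at 1174 ± 43.9 and 1273 ± 71.9 CPM (log2 change 0.12 ± 0.16). With offsets for GC content and length, both were below 0, at -0.04 and -0.31. Grn, the progranulin precursor, was at 338, 536, 596 and 666 CPM and then 460, 497 and 281 CPM (log2 change -0.37 ± 0.24), and Mcoln1, the calcium channel of the lysosomal membrane, had a log2 change of -0.01 ± 0.26.

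Tfeb, the regulator of this gene programme (chr17:47737030-47792419), was at 29.4, 20.9, 21.6 and 26.1 CPM in Sham 1 to 4 and at 13.1, 22.7 and 8.80 CPM in pMCAO 1 to 3. Libraries pMCAO 1 and 3 lay below all sham libraries and pMCAO 2 among them. Means were 24.5 ± 4.00 (SD, n = 4) and 14.9 ± 7.14 CPM (SD, n = 3), a log2 change of -0.72 ± 0.32 (edgeR adjusted p = 0.353). At 63.2%, its transcript had the highest GC content of all members.

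The 20 proton pump genes had the median nearest to 0 of the 4 groups, at -0.15, with 7 higher and 13 lower means. In the V1 sector the median over 10 genes was -0.07. The catalytic subunit Atp6v1a was at 148 ± 11 CPM in sham and 173 ± 25.1 CPM in pMCAO libraries (log2 change 0.23 ± 0.17), and its partner Atp6v1b2 at 114 ± 12.9 and 120 ± 9.65 CPM (log2 change 0.08 ± 0.17). For these subunits the surgery groups did not differ beyond their spread. Atp6v1c2 was near the limit of detection, with 56, 35, 12 and 64 counts in sham and 0, 6 and 7 counts in pMCAO libraries. All sham values were above all pMCAO values in CPM, but a log2 change fitted to so few counts (-2.81 ± 1.07, adjusted p = 0.274) has little precision.

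In the membrane-bound V0 sector the median over 8 genes was -0.28, and both directions occurred. Atp6v0e, a small membrane subunit (chr17:26663231-26699647), was at 111, 89.1, 93.5 and 96.9 CPM in sham and at 76.8, 71.2 and 41.5 CPM in pMCAO libraries, which did not overlap. The log2 change was -0.63 ± 0.22 (adjusted p = 0.242). Atp6v0a2, the a subunit isoform known from the Golgi and endosomes, was at 59.3, 60.1, 47 and 50.1 CPM and then 39.1, 36.5 and 43.4 CPM. These groups did not overlap either (log2 change -0.45 ± 0.20, adjusted p = 0.342), and the gene shares exonic sequence with an antisense transcript.

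Atp6v0d2, the d subunit isoform typical of osteoclasts and of some macrophages (chr4:19876841-19922605, minus strand), was the V0 gene with the clearest higher mean. It was at 13.4, 14.1, 9.48 and 15.2 CPM in sham and at 19.4, 27.7 and 21.1 CPM in pMCAO libraries. Every pMCAO library was above every sham library (log2 change 0.80 ± 0.28, adjusted p = 0.239). The ubiquitous isoform Atp6v0d1 was at 71.9, 81.2, 79.4 and 87.2 CPM and then 60.8, 83.3 and 32.5 CPM (log2 change -0.44 ± 0.26), with its lowest value in pMCAO 3. Of the accessory subunits, Atp6ap1 was at 145, 224, 202 and 206 CPM and then 208, 136 and 132 CPM. Atp6ap2, the prorenin receptor, was at 238, 220, 135 and 137 CPM and then 197, 196 and 192 CPM. The SD between sham libraries was 17.6% of the mean for Atp6ap1 and 29.6% for Atp6ap2.

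Summed over genes, the lysosomal programme was lowest in pMCAO 3. The 11 cathepsins summed to 9106, 11441, 10110 and 10678 CPM in Sham 1 to 4 and to 8817, 9175 and 7762 CPM in pMCAO 1 to 3. The other hydrolases summed to 2184, 2847, 2692 and 2739 CPM and then 2446, 2422 and 2282 CPM, the membrane, cofactor and regulator genes to 3725, 4384, 4222 and 4344 CPM and then 3694, 4080 and 3144 CPM, and the pump genes to 1552, 1596, 1523 and 1569 CPM and then 1457, 1635 and 1313 CPM. For cathepsins Sham 1 lay within the pMCAO range, below pMCAO 2. For other hydrolases Sham 1 was the lowest of all 7, and for the pump pMCAO 2 was the highest of all 7. In bulk RNA, fewer macrophages in a sort and less of these transcripts per macrophage cannot be told apart. Of the 13 pan-macrophage markers 12 had lower means, with a median log2 change of -0.38, and 0 passed the edgeR test. Of the 12, 6 had an unadjusted p under 0.05 (6.47% of all genes were lower in this way). DESeq2 called 4 of them lower (1.24% of all genes it tested were called lower): C1qa (adjusted p = 0.00353), C1qb (0.0138), Fcgr1 (0.0343) and C1qc (0.0392). By edgeR their log2 changes were -0.97, -0.92, -0.77 and -0.78, and with the offsets for GC content -0.43, -0.46, -0.55 and -0.33. The 1 marker with a higher mean was Mertk (log2 change 0.54 ± 0.21, edgeR adjusted p = 0.272), and Ptprc was near 0 (-0.02 ± 0.18).

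The library pMCAO 3 often had the lowest level, and leaving it out changed the size of the lower means more than their number. It held the lowest of the 7 values for 25 of 49 members (51.0%), against 20.2% of all genes, and for 25 of the 46 members with at least 5 CPM (54.3%), against 24.4% of such genes. The highest value lay in Sham 2 for 17 members (34.7%, against 13.4% of all genes). Without pMCAO 3, 33 of the 49 members had a log2 change below 0, against 36 with it, and the median was -0.16 over all members, -0.25 for cathepsins, -0.20 for other hydrolases, -0.13 for the membrane, cofactor and regulator genes and -0.01 for the pump.

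**Figure D4:**
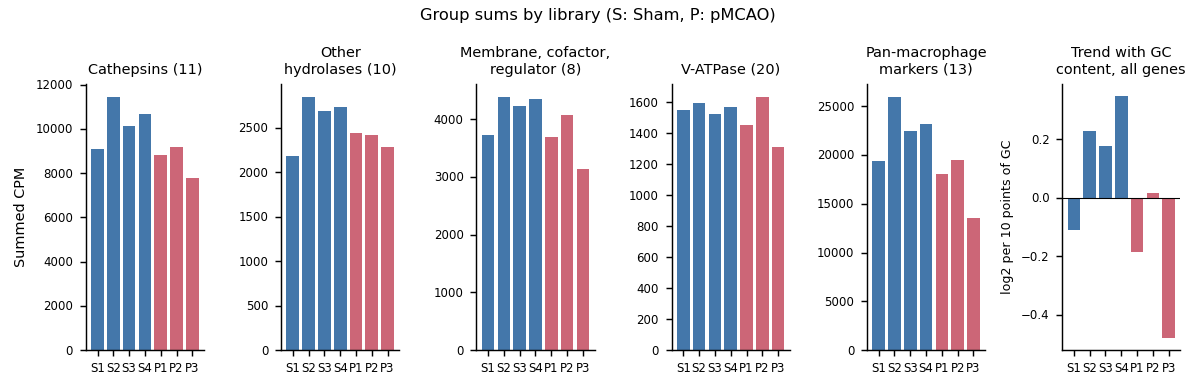
Summed CPM of the 4 groups of members and of 13 pan-macrophage markers in each library, and the slope of log2 level on GC content over genes of at least 5 CPM (bars; S for sham and P for pMCAO, with the replicate number). Library pMCAO 3 has the lowest sum in 4 of these 5 panels, all but that of the other hydrolases, and the steepest negative slope.

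The change of a member went with the GC content of its transcript. Across the 49 genes, which share the same 7 libraries, Spearman's rho between the GC content of the longest transcript and the log2 change was -0.629 (Pearson's r = -0.465), and across 17127 genes of the table it was -0.385. Below 47% GC, 10 of 15 members had higher means, with a median of 0.09 on the log2 scale. At 47% or more, 31 of 34 members had lower means, with a median of -0.38. The bound of 47% was chosen after the values were seen.

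With an offset per library for GC content and length, added after seeing the data, rho among members was -0.00235. The offsets were fitted to each library's own trend, so a rho near 0 follows largely from the fit. They also take out any difference between the surgery groups that goes with GC content, so the part of GC content was not tested. The median log2 change of all members in this fit was -0.12, against 0.01 over all genes. It was -0.22 for cathepsins, -0.23 for other hydrolases, -0.18 for membrane, cofactor and regulator genes and -0.08 for the pump. In that fit 0 members passed (0.192% of all genes did), and 4 higher members (5.71% of all genes) and 8 lower ones (4.85% of all genes) had an unadjusted p under 0.05. Estimates of several GC-rich genes moved towards 0: Ctsd went from -0.37 to -0.07, Grn from -0.37 to -0.04 and Tfeb from -0.72 to -0.45. The members with the smallest p-values kept their direction, with Gusb at -0.55 (adjusted p = 0.119), Hexa at -0.56 (adjusted p = 0.233), Atp6v0e at -0.70, Gla at 0.73 (adjusted p = 0.233), Atp6v0d2 at 0.66 and Ctsl at 0.52.

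**Figure D5:**
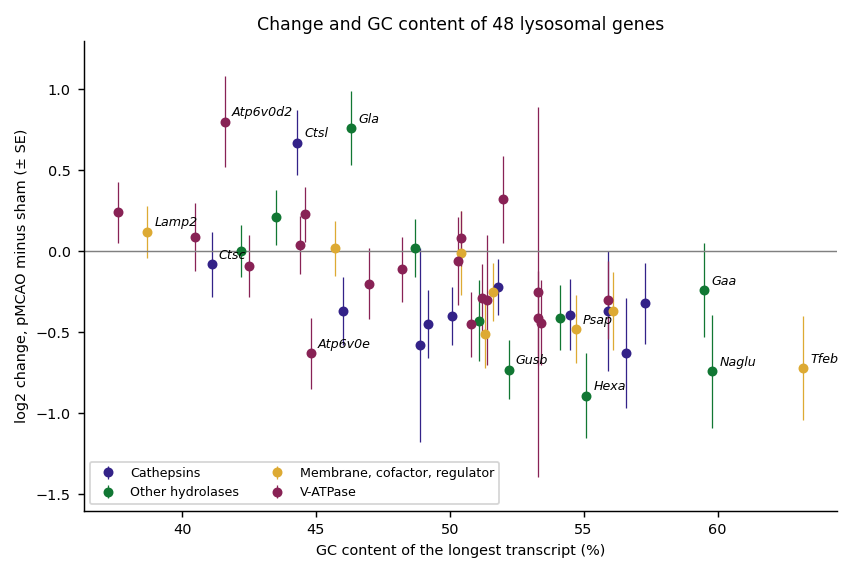
The log2 change from sham to pMCAO (± SE) of 48 members against the GC content of the longest transcript, coloured by group. Members below 47% GC lie mostly at or above 0 and those with more GC mostly below 0, while Gusb and Hexa lie below and Gla and Ctsl above genes of similar GC content.

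The wider lysosome was read from 125 other genes, of which 120 were measured. None passed the edgeR test. Means were higher for 42 and lower for 78 (median log2 change -0.16), where 51.4% of all genes were lower. At an unadjusted p under 0.05 were 7 higher (5.83%, against 6.97% of all genes) and 16 lower (13.3%, against 6.47% of all genes). Of all genes it tested DESeq2 called 1.24% lower, and of the 120 it called 2, both lower. These were Slc15a3, a lysosomal transporter of histidine and small peptides, at 53.2, 54.6, 56.8 and 55.1 CPM in sham and 38.5, 34.4 and 23.2 CPM in pMCAO libraries (log2 change -0.78 ± 0.22, DESeq2 adjusted p = 0.0392, edgeR adjusted p = 0.158), and Rnaset2a, an acid ribonuclease (log2 change -0.84 ± 0.23). Rnaset2a has a near-identical copy, Rnaset2b, between which reads cannot be divided with certainty.

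Further hydrolases (42 genes) and membrane proteins (35 genes) had median log2 changes of -0.18 and -0.28. Sgsh, a sulphatase of heparan sulphate, was at 30.2 ± 10.9 and 15.5 ± 2.77 CPM (log2 change -0.96 ± 0.33, adjusted p = 0.232), and Laptm5, a membrane protein of lysosomes in blood-derived cells, at 623 ± 159 and 402 ± 114 CPM (log2 change -0.63 ± 0.24, adjusted p = 0.272). Among cathepsin inhibitors, Cst3, the secreted cystatin C, was at 1318, 2171, 1767 and 2212 CPM in sham and 1187, 1413 and 676 CPM in pMCAO libraries. Only Sham 1 was within the pMCAO range (log2 change -0.77 ± 0.25, adjusted p = 0.216), and with the offsets for GC content the estimate was -0.33. Cstb, the cytosolic cystatin B, had a log2 change of 0.19 ± 0.37.

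Genes that deliver enzymes to the lysosome had a median near 0. Over 12 sorting genes it was -0.04, and the smallest p-values belonged to Igf2r, the receptor that carries mannose-6-phosphate-tagged enzymes, at 22.6, 16.2, 10.7 and 9.48 CPM in sham and 37.9, 34.6 and 21.2 CPM in pMCAO libraries, and to Sort1, another sorting receptor, at 20.4 ± 3.81 and 36.5 ± 12.7 CPM. For Igf2r only Sham 1 reached into the pMCAO range (log2 change 1.08 ± 0.33, adjusted p = 0.192). Over 17 regulators the median was 0.03: Fnip1, of the folliculin complex, had a log2 change of 0.53 ± 0.19 and Lamtor1, of the Ragulator complex, one of -0.89 ± 0.35. The 11 genes of fusion and transport had a median of -0.05, and by edgeR 0 of them had an unadjusted p under 0.05. The smallest p-values there belonged to Vps18, of the tethering complexes, and Plekhm1, an adaptor of lysosome fusion, with log2 changes of -0.47 ± 0.27 and -0.38 ± 0.25.

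The log2 changes and p-values that the authors computed can be set beside these. In the authors' deposited table, no member had an FDR under 0.05 (0.0232% of all genes were higher and 0.0581% lower). At an unadjusted p under 0.05, the authors' deposited table has 1 member higher (6.98% of all genes were) and 18 lower (36.7% of members, against 9.69% of all genes). For Hexa the authors' deposited table gives a log2 change of -1.47 (FDR 0.104), for Gusb -0.96 (FDR 0.146) and for Gla 1.08 (FDR 0.202). For Ctsl and Ctsd the authors' deposited table gives 0.22 and -1.26, where the fit to the counts gave 0.67 and -0.37.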

How the data were processed

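RNA-seq was made from sorted muscularis macrophages of 4 sham and 3 pMCAO libraries. Per the submitters' processing notes, the authors used STAR, featureCounts, limma and GRCm38 (mm10). Their versions, the strand setting and the annotation release were not given in the sources used here. The deposited read counts per gene are the authors', and were the basis of all tests. The deposited CPM values are the authors' counts divided by the library total. The log2 fold changes and the p-values with their FDR in the deposited table are also the authors' and were printed only where named.

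From the counts, edgeR 4.0.16 in R 4.3.3 was fitted across all 17209 genes (quasi-likelihood F test, two-sided, robust, TMM factors, group as the only term; filterByExpr removed 0 genes). P-values were adjusted by Benjamini-Hochberg, with a threshold of 0.05. CPM in the report are TMM-scaled, and SE is the log2 change divided by the square root of F. The common biological coefficient of variation was 43.6%, and totals of 12685941 to 34432716 counts cover counting error only. Exon lengths and GC content came from GENCODE M21 (99.52% of gene IDs matched). In it 16 members share exons with another gene.

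The members and lists were chosen with earlier results of these data known. Values in every library were given for the 4 members of each group with the smallest p, the 2 with the highest level per kilobase, and Tfeb, Lamp1, Ctss and Lgmn, and of other lysosomal genes values for the 2 with the smallest p in each list; further genes were named after their values were seen. Alternatives were DESeq2 1.42.0, limma-voom 3.58.1, other scaling factors, a minimum of 5 CPM, each library left out, a replicate block, and GC and length offsets added later. Fits were tested on simulated data.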

Additional observations from a re-analysis of the deposited data

Results flagged for a closer look

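In the 4 sham libraries, 1 value stood apart from the other 3 for 3 members: the gap to the nearest value took more of the range than is usual for 4 values. Of 53 sets of sham values examined, chance alone would mark about 1 in 20. Gusb was at 177 CPM in Sham 1, against 228 to 235 CPM in the others. Man2b1 was at 353 CPM in Sham 1, against 565 to 582 CPM. Atp6v1e1 was at 73.4 CPM in Sham 2, against 50 to 53.9 CPM.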

How the results depend on the processing

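By edgeR 0 members passed under every scaling, filter, left-out library and offset tried. DESeq2 called 2 lower, Gusb (log2 change -0.71) and Hexa (-0.88). Of 366 values of the 23 named members under other settings, 364 stayed on the same side of the threshold. No member was called in the main fit, so no call could be reversed. Of the 49 members, 31 kept their sign in all 16 settings. The setting with no low-count filter repeats the main fit, since that filter removed 0 genes. Leaving out 1 library at a time, the median log2 change ranged from -0.49 to -0.25 for cathepsins, -0.48 to -0.19 for other hydrolases, -0.44 to -0.13 for membrane, cofactor and regulator genes and -0.20 to -0.01 for the pump, and the number of lower members at an unadjusted p under 0.05 from 4 to 16 (4.11% to 9.53% of all genes). With no scaling factors that number was 16 (10.8% of all genes), and the median was -0.42 over members and -0.14 over all genes. The count of all genes called was 17, but 0 without pMCAO 1 (1987 at an unadjusted p), 7 without pMCAO 3, 9 without Sham 4, 100 without pMCAO 2, 47 without Sham 1 or without Sham 2, 34 with upper-quartile factors, 29 with no scaling factors, 33 with the offsets and 75 among genes of at least 5 CPM. The causes were not tested. Same-numbered libraries of both groups correlated at -0.102, 0.013 and 0.177 in their deviations from the group means, where other pairs ran from -0.141 to 0.137. With so few libraries these values cannot tell whether the numbers pair them, and the labels state no pairing. The fit with a replicate block covered replicates 1 to 3 only, so it left out Sham 4. In it 21 genes and 0 members were called, and the medians were -0.36, -0.18, -0.24 and -0.08 in the order above. Without Sham 4 and with no block they were -0.33, -0.19, -0.24 and -0.12, with 9 genes called.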

Other observations

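Ratios were computed for pairs of members with related roles, which were chosen after their values were seen and not tested. The ratio of Ctsl to Ctsb, both cysteine endopeptidases, in CPM per kilobase of exon was 0.0634, 0.0599, 0.0688 and 0.0617 in Sham 1 to 4 and 0.126, 0.142 and 0.143 in pMCAO 1 to 3. Although each gene varied between libraries, this ratio was nearly constant within both groups, also in pMCAO 3. The log2 changes of the pair differed by 1.11, and by 0.94 with the offsets for GC content and length. The ratio of Ctsl to Ctss was 0.0135 to 0.0255 in sham and 0.0325 to 0.0483 in pMCAO libraries.

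The ratio of the d subunit isoforms of the pump, Atp6v0d2 to Atp6v0d1, was 0.123, 0.115, 0.0789 and 0.115 in sham and 0.210, 0.220 and 0.429 in pMCAO libraries, so the restricted isoform was the minor one in all 7. The ratio of Gla to Hexa was 0.0539 to 0.115 in sham and 0.159 to 0.35 in pMCAO libraries. For these pairs the log2 changes differed by 1.24 and 1.65, and by 0.84 and 1.29 with the offsets. The ratio of Lamp1 to Lamp2 overlapped between the groups, at 3.03 to 3.78 and 2.04 to 3.21, and the difference of their log2 changes went from -0.37 to 0.26 with the offsets.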
